A study of Mus musculus with 4 samples.

Results

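Hsd17b2, Fam25c, 2310002D06Rik, Ttr and Fgl1 are 5 genes other than uroplakins that were selected on their strong loss from cultured ureters lacking Pparg. They were taken from 29924 gene names on the array and are read by 7 of its 39429 probes. All 7 probes passed the filter on dim probes, and each was well above background in all 8 RNA pools. Because the loss in Pparg-cKO ureters chose these genes, the differences between genotypes are given for them as a description, with no test. The response to purmorphamine is another contrast and was tested, although in both genotypes it shares the DMSO pools with the choice. Its p-values for these genes are therefore not independent of the choice.

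The arrays compared explanted ureters of newborn NMRI mice, an outbred stock, after 8 days in culture with the solvent DMSO or with 2 µM purmorphamine, an agonist of SHH signalling. Control ureters came from cre-negative littermates of genotype Pparg (fl/?). Mutant ureters were Pax2-cre/+; Pparg (fl/fl), here called Pparg-cKO, so controls carry at least 1 floxed allele too. The Pax2 transgene drives cre in the urothelium and in related kidney epithelia, and recombination in the ureter's other tissues was not measured here. Each RNA sample was a pool of ureters of 1 sex, and each array held a DMSO pool and a purmorphamine pool of the same genotype and sex in different dyes. Replicate 1 of each genotype was male with DMSO in the green dye, and replicate 2 was female with DMSO in the red dye, so that sex and dye orientation cannot be told apart. There were 4 arrays, 2 per genotype, and p-values measure only the spread between these pools. How many ureters made a pool is not given in the sources used here.

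The urothelium lining the ureter is layered, with basal cells on the stroma, intermediate cells above them and large superficial cells facing the urine. Superficial cells make uroplakins, the proteins of the plaques that seal the urinary surface, and their differentiation depends on the nuclear receptor PPARG, which binds DNA with RXR. The epithelium also secretes SHH, which acts on the surrounding mesenchyme. Of the 5 genes, Hsd17b2 encodes an enzyme that oxidises oestradiol and testosterone to weaker steroids, Ttr encodes transthyretin, the carrier of thyroxine and of the retinol-binding protein, and Fgl1 encodes a secreted fibrinogen-like protein best known from the liver and as a ligand of the T cell receptor LAG3. Fam25c encodes a small protein whose role is not settled, and 2310002D06Rik is a long non-coding RNA.

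The probes that carry the measurements are 60 bases long and sit at the following mm9 positions. The Hsd17b2 probe lies at chr8:120282508-120282567 on the plus strand and the 2310002D06Rik probe at chr12:81618882-81618941 on the plus strand. The Fam25c probe spans chr14:35165215-35166894 on the minus strand, 1680 bases of genome, so it bridges an intron. Of the Fgl1 probes, A_52_P294510 spans chr8:42285914-42295065 on the minus strand, 9152 bases, and likewise bridges an intron, whereas A_55_P2004447 lies at chr8:42285849-42285908. These sequences are shown because they name the transcript regions behind the values. They are printed 5′ to 3′ in lower case, with no base singled out.

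Hsd17b2, A_51_P441914: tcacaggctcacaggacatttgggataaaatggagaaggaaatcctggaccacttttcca
Fam25c, A_52_P270429: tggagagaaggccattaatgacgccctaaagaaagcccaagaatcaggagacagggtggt
2310002D06Rik, A_55_P2071082: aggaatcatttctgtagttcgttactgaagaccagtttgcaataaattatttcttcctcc
Fgl1, A_52_P294510: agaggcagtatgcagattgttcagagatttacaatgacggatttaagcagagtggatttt
Fgl1, A_55_P2004447: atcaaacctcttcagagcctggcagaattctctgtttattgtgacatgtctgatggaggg

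The longest run that any of the 7 probes shared with a probe of another gene name was 15 bases, so no other probe on the array repeats them. The brightest Fgl1 probe, A_55_P1984830, lies at chr8:42276846-42276905 on the minus strand, and as the brightest it stands for the gene below.

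Promoter windows from RefSeq, 250 bases before to 50 after the start in build GRCm38.p6, were matched for 2 of the 5 genes, Fam25c and 2310002D06Rik. They are shown because both genes were selected on their loss without PPARG, and because nuclear receptors such as PPARG with RXR bind repeats of the hexamer AGGTCA. Capitals mark this hexamer or its reverse complement, the only motif marked.

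2310002D06Rik, chr12:80506956-80507255, plus strand: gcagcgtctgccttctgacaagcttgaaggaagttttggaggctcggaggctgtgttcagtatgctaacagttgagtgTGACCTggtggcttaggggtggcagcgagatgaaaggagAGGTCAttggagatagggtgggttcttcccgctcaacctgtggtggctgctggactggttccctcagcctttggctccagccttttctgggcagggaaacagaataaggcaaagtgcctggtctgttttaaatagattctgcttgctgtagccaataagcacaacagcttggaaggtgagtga
Fam25c, chr14:34355344-34355643, minus strand: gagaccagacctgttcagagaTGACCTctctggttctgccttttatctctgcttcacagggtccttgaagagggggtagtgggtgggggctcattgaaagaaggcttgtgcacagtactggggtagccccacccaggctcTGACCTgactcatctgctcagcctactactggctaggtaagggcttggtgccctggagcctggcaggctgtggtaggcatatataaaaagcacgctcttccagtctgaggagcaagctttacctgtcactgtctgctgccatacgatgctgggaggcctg

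Each of these windows held the hexamer at 2 places, counting both strands. The places began 172 and 133 bases before the start in 2310002D06Rik, and 229 and 110 bases before it in Fam25c. In neither window did they lie side by side as a repeat. Of the 32851 promoter windows of the same length, 16.3% held it at least at 1 place and 1.81% at 2 or more, at any distance. The letters GACCACCCA, a core to which GLI factors of SHH signalling bind, were in neither window and in 0.253% of all windows, both strands read. A match is a run of letters and not a measured binding site.

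The labels were first checked against the data. The single Pparg probe lies in the transcript at base 1562, outside the deleted exons 2 and 3, so it checks nothing about the deletion. Its log2 level was 14.79 and 15.31 in the DMSO control pools and 15.55 and 15.58 in the DMSO Pparg-cKO pools. The genotype difference was 0.51 ± 0.17 (SE) on the log2 scale in DMSO with an adjusted p of 0.211 and 0.88 under purmorphamine with an adjusted p of 0.0520, and the treated mutant was 0.98 above the DMSO control with an adjusted p of 0.0200. The labelled sexes fitted the sex-linked genes. The brighter Xist probe read 12.19 to 13.21 in the 4 female pools and 5.99 to 6.20 in the 4 male pools, and Ddx3y read 12.84 to 13.15 in the male and 5.95 to 6.46 in the female pools. The share of probes well above background ran from 66.6% to 70.8% over the pools.

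Hsd17b2 was low in DMSO-treated Pparg-cKO ureters and rose to near the DMSO control level with purmorphamine. Values here and below are normalised log2 levels of the brightest probe, with the male pool first. Hsd17b2 read 10.72 and 11.11 in control with DMSO and 11.67 and 12.27 in control with purmorphamine. It read 8.62 and 8.46 in Pparg-cKO with DMSO and 10.55 and 11.28 in Pparg-cKO with purmorphamine. Both DMSO-treated mutant pools were therefore below all other pools, and the treated mutant pools lay around those of the DMSO control. In DMSO the mutant differed from the control by -2.38 ± 0.29 (SE) on the log2 scale, 5.19-fold lower, and under purmorphamine by -1.05 ± 0.29, 2.07-fold lower.

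The non-coding RNA 2310002D06Rik moved in parallel. It read 10.82 and 10.72 in control with DMSO, 11.35 and 11.93 in control with purmorphamine, 8.65 and 8.45 in Pparg-cKO with DMSO, and 10.43 and 10.95 in Pparg-cKO with purmorphamine. Again the DMSO-treated mutant pools stood alone at the bottom, and 1 treated mutant pool was above and 1 below both DMSO controls. The mutant was 4.65-fold lower in DMSO and 1.93-fold lower under purmorphamine.

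Fam25c showed the mildest loss of the 5 genes. It read 14.25 and 14.49 in control with DMSO, 14.97 and 15.41 in control with purmorphamine, 13.01 and 13.52 in Pparg-cKO with DMSO, and 14.73 and 14.95 in Pparg-cKO with purmorphamine. The treated mutant pools exceeded both DMSO controls and lay just below the treated controls. The mutant was 2.15-fold lower in DMSO and 1.27-fold lower under purmorphamine, the second difference being -0.34 ± 0.22 (SE) on the log2 scale.

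Ttr, read by the probe A_65_P19832 from base 428 of its transcript, also rose with purmorphamine in the mutant but stayed far below the control. It read 10.58 and 11.11 in control with DMSO, 11.67 and 12.25 in control with purmorphamine, 6.91 and 7.59 in Pparg-cKO with DMSO, and 7.80 and 9.20 in Pparg-cKO with purmorphamine. All 4 mutant pools were below all 4 control pools, and the treated mutant pools differed by -1.40, male minus female, the widest gap between the sexes for this gene. The mutant differed by -3.59 ± 0.47 (SE) on the log2 scale in DMSO, 12.1-fold lower, and by -3.46 ± 0.47 under purmorphamine, 11.0-fold lower.

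Fgl1 went the other way. It read 13.35 and 12.56 in control with DMSO and 12.33 and 10.73 in control with purmorphamine. It read 8.90 and 8.55 in Pparg-cKO with DMSO and 7.52 and 6.97 in Pparg-cKO with purmorphamine. The lowest pools were thus the treated mutants, and in each genotype and sex the treated pool was below its DMSO partner. In DMSO the mutant differed by -4.23 ± 0.51 (SE) on the log2 scale, 18.7-fold lower, and by -4.28 ± 0.51 under purmorphamine, 19.5-fold lower. Ranked from the lowest difference in DMSO over all 20522 genes tested, Fgl1 stood at place 1, Ttr at place 4, Hsd17b2 at place 31, 2310002D06Rik at place 43 and Fam25c at place 265. The other Fgl1 probes gave 15.8-fold and 17.7-fold, so the 3 probes, which read separate stretches of the transcript, did not disagree. In RNA of whole ureters, fewer cells of a type and less RNA per cell cannot be told apart.

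**Figure D1:**
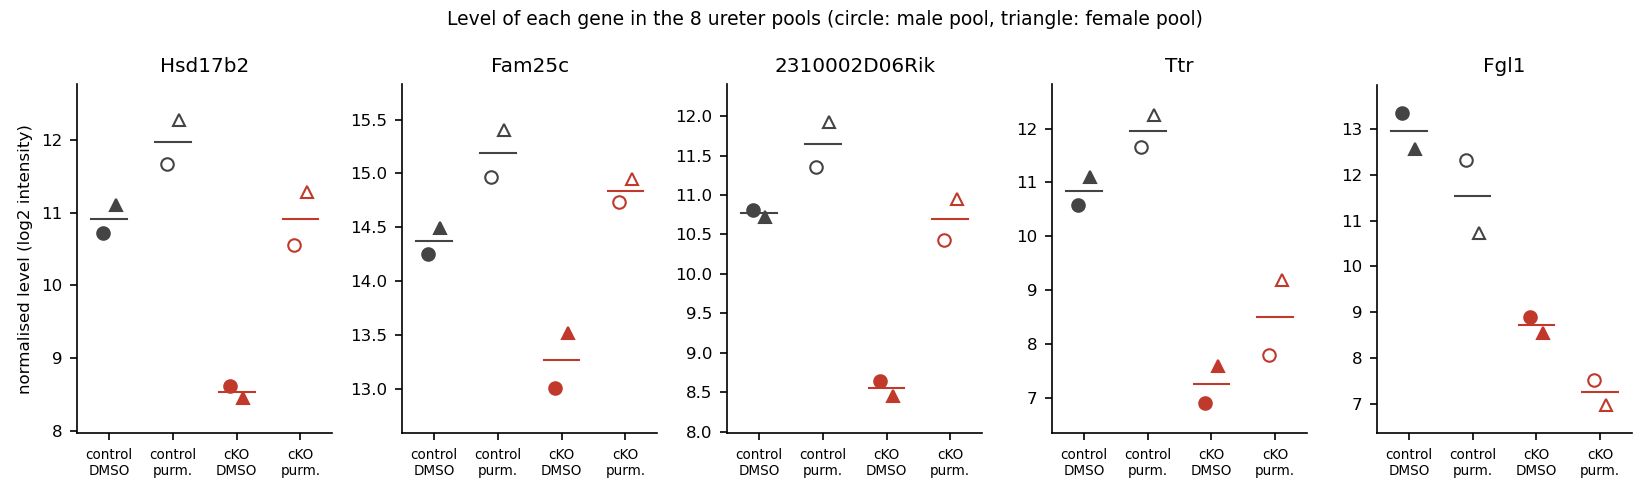
Normalised log2 level of each gene's brightest probe (vertical axis, a separate scale per gene) in the 8 pools, by genotype and treatment; circles are male and triangles female pools, open symbols purmorphamine, and lines the mean of 2 pools. In the treated mutant Hsd17b2, Fam25c and 2310002D06Rik lie above the DMSO-treated mutant, Ttr rises to a mean of 8.50 and Fgl1 drops to 7.25.

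Whether purmorphamine changed these genes was tested within arrays, as the log2 ratio of the purmorphamine to the DMSO pool, with limma fitted across all 27464 probes tested. In Pparg-cKO ureters, 4 of the 5 genes rose and Fgl1 fell at an adjusted p under 0.05. Over all 20522 genes, 1.76% rose and 2.67% fell. The DMSO pools of the mutant, whose low values had chosen these genes, are the base of this ratio, so the rises are not independent of the choice.

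Hsd17b2 rose by 1.93 in the male and 2.82 in the female Pparg-cKO array, a mean of 2.38 ± 0.23 (SE) with an adjusted p of 0.0189. The SE of each purmorphamine effect rests on a spread that limma estimates from all 4 arrays. It is therefore the same in both genotypes and is not the spread of the 2 arrays named. 2310002D06Rik rose by 1.78 and 2.50, a mean of 2.14 ± 0.24 with an adjusted p of 0.0240. Fam25c rose by 1.72 and 1.42, a mean of 1.57 ± 0.13 with an adjusted p of 0.0161. These correspond to 5.19-fold, 4.41-fold and 2.98-fold higher levels, and no array went against the mean. Ttr rose by 0.88 and 1.61, a mean of 1.24 ± 0.19 or 2.37-fold, and was nearest to the threshold with an adjusted p of 0.0416. Fgl1 changed by -1.38 and -1.58, a mean of -1.48 ± 0.21, which is 2.79-fold lower, with an adjusted p of 0.0372, and its other probes fell with adjusted p-values of 0.0301 and 0.0322.

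In control ureters the direction was the same for each gene, but none of the 5 passed the threshold, where 0.273% of all genes rose and 0.882% fell. The DMSO controls, whose high values had served the choice, are the base of this ratio and push it downward. Neither the missed rises nor the fall of Fgl1 is therefore independent of the choice. At an unadjusted p under 0.05, each of the 5 would have passed, with 4006 of the 20522 genes. Hsd17b2 changed by 0.95 and 1.16 in the male and female control arrays, with an adjusted p of 0.115 for the mean of 1.05 ± 0.23. Ttr changed by 1.09 and 1.14 with an adjusted p of 0.0833, Fam25c by 0.72 and 0.91 with 0.0713, and 2310002D06Rik by 0.54 and 1.21 with 0.163. The brightest Fgl1 probe changed by -1.02 and -1.83 and missed the threshold with an adjusted p of 0.0655, whereas its other probes passed with 0.0405 and 0.0473.

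The test of the difference between genotypes called none of the 5 genes, and of all genes 0% passed, with 677 at an unadjusted p under 0.05. The response was larger in the mutant by 1.32 for Hsd17b2 (95% interval 0.50 to 2.15), by 1.27 for 2310002D06Rik (0.40 to 2.14) and by 0.76 for Fam25c (0.31 to 1.21), at an adjusted p of 1.00 for each. For Ttr the difference was 0.13 (-0.55 to 0.81) and for Fgl1 -0.06 (-0.82 to 0.70). Both genes were dimmer in the mutant, and these small differences depended on the offset of the background correction. With an offset of 10 in place of 50, Ttr changed by 1.53 in the mutant and 1.13 in control, and Fgl1 by -1.81 and -1.44. The low DMSO values of the mutant and the high ones of the control chose the genes. They push the difference between genotypes upward, so nothing is read from the intervals, and a larger response in the mutant was not shown.

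The calls depended on the processing. In control 3 of 5 were called (Hsd17b2, Ttr and Fgl1) when either Pparg-cKO array was left out, where 2.51% of all genes were called in either direction. A second rule asked for an intensity above 100 in either pool and at least 1.5-fold on both arrays, on the scanner's processed signals scaled to a common 75th percentile. By it 4 of 5 passed in control, without 2310002D06Rik, where 4.58% of all genes passed, and 4 of 5 in Pparg-cKO, without Ttr, where 6.08% passed. With limma the calls in Pparg-cKO numbered 0 of 5 when the scanner software's processed signals or the deposited fold change table replaced the background correction and loess, and in both of these 0 of all 20522 genes were called. They numbered 1 of 5 when dim probes were kept, where 0.966% of all genes were called, and the direction was the same for every gene in each of these. Without the female Pparg-cKO array 2 of 5 were called, where 0.585% of all genes were, and the female array gave the larger rise for Hsd17b2, 2310002D06Rik and Ttr.

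**Figure D2:**
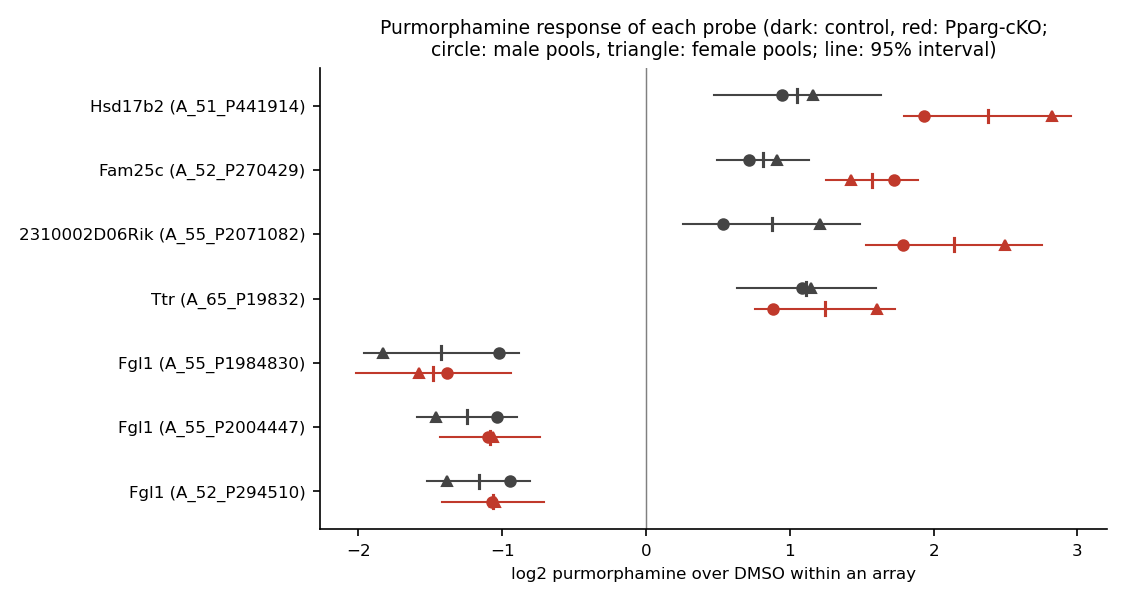
Log2 ratio of purmorphamine over DMSO within each array (horizontal axis) for the 7 probes; dark symbols are control and red Pparg-cKO arrays, circles male and triangles female, ticks the mean of 2 arrays and lines its 95% interval. Every array lies above 0 for Hsd17b2, Fam25c, 2310002D06Rik and Ttr and below 0 for the 3 Fgl1 probes.

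How far the treated mutant ended from the untreated control was then asked. The DMSO controls, whose high values had served the choice, are the base here, so the differences of the 5 genes are given as a description, with no p. Of all genes, 5.58% were called below and 5.24% above the DMSO control. Hsd17b2 differed by 0.00 ± 0.29 (SE) on the log2 scale, with a 95% interval of -0.69 to 0.69, and 2310002D06Rik by -0.08 ± 0.24, with an interval of -0.64 to 0.48. These intervals are wide, so equality with the control was not shown. Fam25c was 0.47 ± 0.22 above the control. Ttr stayed 5.09-fold lower, at -2.35 ± 0.47, a value that moved to -1.65 without the male and -3.05 without the female Pparg-cKO array, and Fgl1 was 52.2-fold lower, at -5.71 ± 0.51, with 33.5-fold and 37.0-fold at its other probes.

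**Figure D3:**
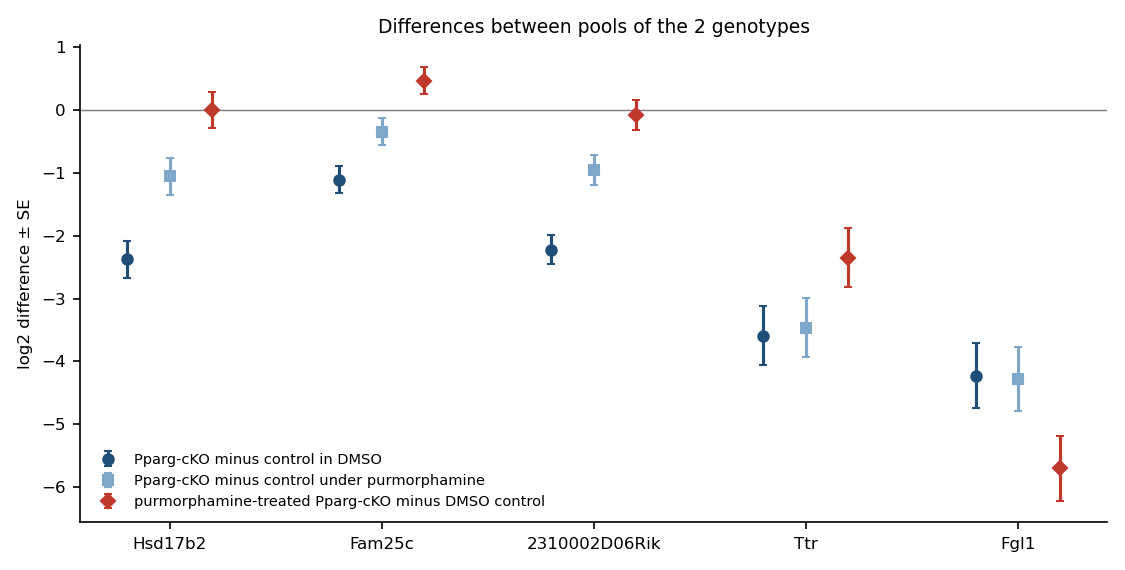
Log2 difference ± SE (vertical axis) for each gene's brightest probe between mutant and control in DMSO, between both under purmorphamine, and between treated mutant and DMSO control. The treated mutant is at 0.00 for Hsd17b2 and -0.08 for 2310002D06Rik, but at -2.35 for Ttr and -5.71 for Fgl1.

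The male and female pools differed in a gene-specific way, with 1 pool of each sex per group and no test. Fgl1 was higher in the male pool in all 4 groups, by 0.35 to 1.60 on the log2 scale. Ttr was higher in the female pool in all 4 groups, with a male minus female difference of -0.53 to -1.40, and so was Fam25c, with -0.22 to -0.51. Hsd17b2 and 2310002D06Rik were higher in the female pool in 3 and 2 of the 4 groups, the treated ones included, and not in the DMSO-treated mutant.

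The 4 genes that rose were set beside 11 superficial cell genes that the study had named for the ureter, a list chosen in part on such ureters and so no independent evidence of direction. In Pparg-cKO ureters 8 of the 11 rose with purmorphamine and none fell, where 1.76% of all genes rose and 2.67% fell. The median of the 11 was 1.00 on the log2 scale against 0.00 over all genes. Krt20, the keratin of mature superficial cells, rose by 2.43 ± 0.24 (SE) with an adjusted p of 0.0193, and Sptssb, a subunit of the enzyme that starts sphingolipid synthesis, by 1.99 ± 0.27. Rab27b, a small GTPase that takes uroplakin vesicles to the surface, rose by 1.42 ± 0.17 and Psca, a surface antigen, by 1.37 ± 0.12. Snx31, Rnf144b, Ly6d and Sdr42e1 rose by 1.38, 1.00, 0.85 and 0.69, while Ly6k, Adssl1 and Sh3bgrl2 changed by 0.36, 0.19 and 0.00 and were not called. Of 4 genes of superficial and intermediate cells, Fa2h and Glb1l2 rose by 1.31 and 0.88, and Paqr5 and Ivl were not called at 0.84 and -0.01. In control ureters none of these 15 genes was called, with medians of 0.56 and 0.41. No superficial cell gene on these lists shared the fall of Fgl1, whose lowest neighbour, Ivl, changed by -0.01 in the mutant.

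Of the 11 superficial cell genes, 6 were lower and none higher in the DMSO-treated mutant than in its control, where 1.73% of all genes were lower and 1.89% higher. Most of the 11 had been picked by the study as lower in fetal Pparg-cKO ureters, so this direction is no independent evidence. On the log2 scale Krt20 differed by -3.70, Sptssb by -2.69, Rnf144b by -1.88, Ly6k by -1.78, Snx31 by -1.45 and Sdr42e1 by -1.28, and Ly6d, at -2.83, was not called. Under purmorphamine 4 of the 11 were lower and none higher, where 1.7% of all genes were lower and 1.13% higher. These were Krt20 at -2.42, Rnf144b at -1.44, Sdr42e1 at -0.97 and Sh3bgrl2 at -0.72. Of the 4 superficial and intermediate cell genes 3 were lower in DMSO (Fa2h, Paqr5 and Glb1l2) and 3 under purmorphamine (Fa2h, Paqr5 and Ivl). In the treated mutant 3 of the 11 were lower than in the DMSO control and none higher, where 5.58% of all genes were lower and 5.24% higher. These were Ly6k at -1.43, Rnf144b at -0.88 and Sh3bgrl2 at -0.56, while Ly6d at -1.98 and Krt20 at -1.27 were not called. Of the 4 superficial and intermediate cell genes 2 were lower there, Fa2h at -1.37 and Paqr5 at -0.81. No superficial cell gene was called in either comparison of genotypes when either control array was left out or when arrays of unlike replicate number were blocked together, settings in which at most 0.253% of all genes were lower in DMSO and at most 0.039% under purmorphamine. With the replicate block, which stands for sex and dye, the count was 4 in DMSO and 2 under purmorphamine, where 0.585% and 0.263% of all genes were lower. Of the 6 uroplakin genes, 4 rose with purmorphamine in the mutant, where 1.76% of all genes rose. These were Upk1a by 2.14, Upk1b by 1.72, Upk3b by 1.44 and Upk2 by 0.84. Between genotypes Upk3b, Upk1a and Upk1b were lower in the DMSO-treated mutant, at -1.83, -1.34 and -1.31, and Upk3b also under purmorphamine, at -1.07, whereas Upk3bl was higher in both media, at 2.27 and 3.58.

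**Figure D4:**
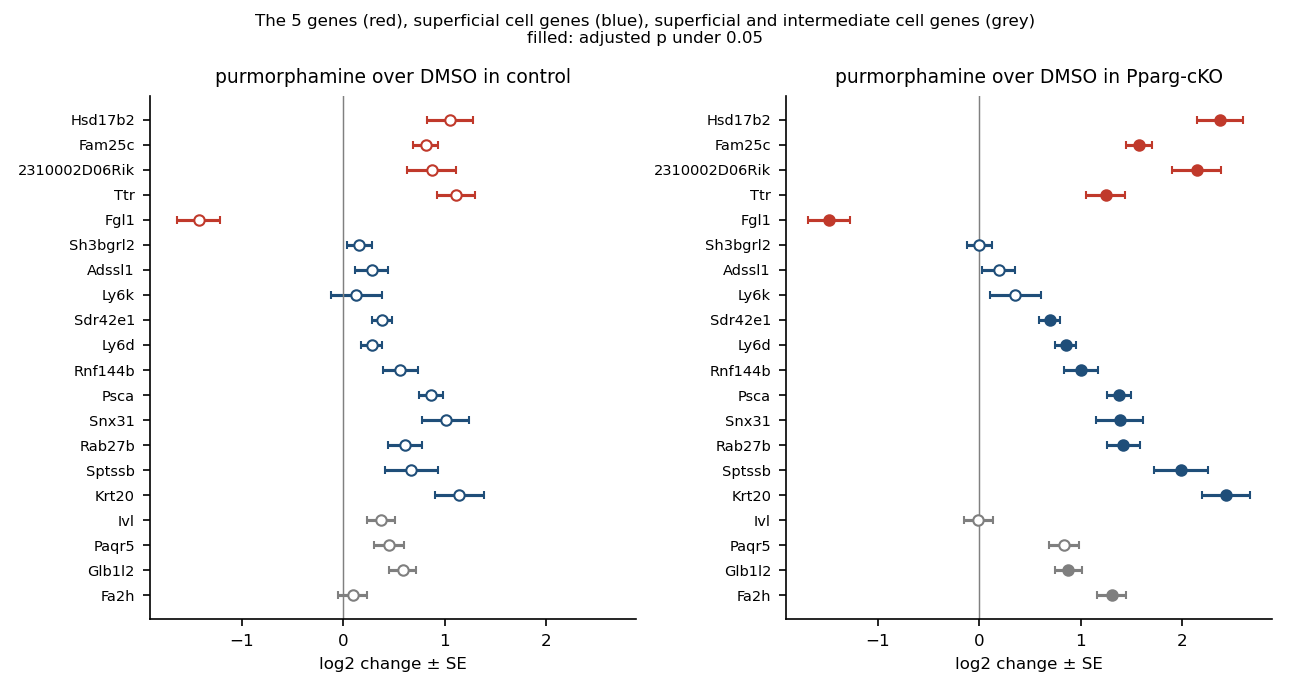
Log2 change ± SE with purmorphamine (horizontal axis) in control and in Pparg-cKO ureters for the 5 genes (red), 11 superficial cell genes (blue) and 4 superficial and intermediate cell genes (grey); filled symbols passed an adjusted p of 0.05. No symbol is filled in control, and in the mutant Fgl1 alone lies clearly below 0.

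Among the other enzymes of sex steroid metabolism, 12 of 17 listed genes were tested. Hsd17b14, another dehydrogenase of the family, and Srd5a1, which reduces testosterone to dihydrotestosterone, were lower in the DMSO-treated mutant and rose with purmorphamine there, as Hsd17b2 did. Hsd17b14 read 12.04 and 12.06 in control with DMSO, 9.81 and 10.08 in Pparg-cKO with DMSO, and 10.38 and 10.83 in Pparg-cKO with purmorphamine. Its genotype difference was -2.10 ± 0.16 (SE) in DMSO, with an adjusted p of 0.0027, and -1.78 under purmorphamine. It rose by 0.66 with purmorphamine in the mutant and ended at -1.44 from the DMSO control. Srd5a1 differed by -1.30 in the DMSO-treated mutant and rose by 1.03 ± 0.11 with purmorphamine. Hsd17b12, which acts mainly in fatty acid elongation, was lower in the mutant under purmorphamine, at -0.52, and in the treated mutant against the DMSO control, at -0.65. The other 9 were not called in any of these comparisons, and Hsd17b3, Hsd17b6, Cyp19a1 and Sult1e1 were not well above background in any pool. Of the receptors on which these steroids act, Esr1 was higher in the DMSO-treated mutant by 1.18, and Esr2 and Pgr were not called.

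Of 16 genes that carry, convert or read retinol and thyroid hormone, the partners of transthyretin, 13 were tested. Rbp4, which travels in blood bound to transthyretin, read 14.95 and 15.12 in control with DMSO, 13.91 and 14.05 in Pparg-cKO with DMSO, and 15.64 and 15.72 in Pparg-cKO with purmorphamine. It differed by -1.05 ± 0.11 (SE) in the DMSO-treated mutant, rose by 1.70 ± 0.12 with purmorphamine, and ended above the DMSO control by 0.65 with an adjusted p of 0.0191, where Ttr stayed below. Lrat, which esterifies retinol, rose by 0.99 in the mutant and ended above the DMSO control by 0.88. Thrb, a thyroid hormone receptor, was lower in the mutant, at -1.01 in DMSO, -0.98 under purmorphamine and -0.96 in the treated mutant against the DMSO control, and changed by 0.04 with purmorphamine. Dio1, a deiodinase, was at least 1.54-fold higher in the DMSO-treated mutant, its control pools being not well above background. Crym, a thyroid hormone binding protein of the cytosol, was higher in the treated mutant than in the DMSO control, at 1.26, and Dio3, another deiodinase, lower, at -0.46. Stra6, a retinol transporter, had the largest differences between genotypes on this list, 1.73 in DMSO and 2.00 under purmorphamine, and was not called.

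Among 12 tested genes of the fibrinogen and fibrinogen-like families and Lag3, none was called between genotypes in either treatment. Lag3, the receptor that binds FGL1, rose with purmorphamine in the mutant by 0.69 with an adjusted p of 0.0419, while Fgl1 fell. The fibrinogen chain genes Fgb and Fgg were lower in the treated mutant than in the DMSO control, at -1.70 and -1.22, as was Fcna, at -1.15, and Fga was at least 1.34-fold lower there, with no mutant pool well above background. Angptl7, Fgb and Fgl2 changed by 1.76, -1.36 and 0.86 with purmorphamine in the mutant, and none of them was called. In control, Angptl7, Fgb and Fgg changed by 1.56, -1.24 and -1.08, and none was called either. All 12 had lower means in the DMSO-treated mutant, with a median of -0.32 on the log2 scale against 0.00 over all genes, and 10 of 12 under purmorphamine.

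The targets by which hedgehog signalling limits or reads itself were read as a check of the treatment. In Pparg-cKO ureters 2 of 3 rose, Hhip by 2.19 ± 0.20 (SE) and Ptch1 by 1.62 ± 0.12, and Gli1 changed by 1.34 with an adjusted p of 0.0579. In control ureters Ptch1 rose by 1.00 with an adjusted p of 0.0474, and Hhip and Gli1 were not called at 1.33 and 1.06. In DMSO none of the 3 was called between genotypes, with differences from -0.70 for Ptch1 to -0.03 for Gli1. All 3 were higher in the treated mutant than in the DMSO control.

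Markers of other cell types were read beside these results, as the sum of normalised intensities over each list. The 9 epithelial markers, with Krt19 the most abundant, summed to 280628 and 296741 in the DMSO controls and 294428 and 297909 in the treated controls. They summed to 279819 and 296584 in the DMSO mutants and 296624 and 276502 in the treated mutants. Their part in the results for the 5 genes was not tested. Of these only Epcam was called, higher in the mutant by 0.61 in DMSO and 0.76 under purmorphamine, while with purmorphamine it changed by -0.81 in the mutant and -0.96 in control. Of 7 basal cell markers, Krt15 fell with purmorphamine in both genotypes, at -1.40 in the mutant and -1.67 in control, and Trp63 was lower in the mutant under purmorphamine and in the treated mutant against the DMSO control, at -1.11 in each. The most abundant of them, Krt5, was not called.

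Some kidney markers were raised in the DMSO-treated mutant pools. The 7 tubule and podocyte markers read here summed to 887 and 597 in the DMSO controls and 586 and 598 in the treated controls. They summed to 1327 and 1429 in the DMSO mutants and 620 in each treated mutant pool. Of 6 tested, Umod, Slc12a1 and Nphs1 were higher in the DMSO-treated mutant and fell with purmorphamine there. Umod, the gene of a urinary protein of the thick ascending limb, differed by 2.37 ± 0.33 (SE) between genotypes in DMSO, with 8.74 and 9.21 in the mutant pools against 7.14 and 6.07 in the controls, and changed by -2.25 with purmorphamine in the mutant. Slc12a1, a salt transporter of the same segment, was higher by 1.40, and Nphs1 was at least 1.94-fold higher, its control pools being not well above background. None was called in control ureters or under purmorphamine between genotypes. Aqp2, a water channel of the collecting duct and the most abundant of the list, was not called, at -0.10 between genotypes in DMSO. Lrp2 and Slc34a1, at 0.43 and -0.22, were not called either. Both were highest in the male DMSO control pool, at 7.66 and 7.39. Slc12a3 was not well above background in any pool. The 3 called markers were high in the DMSO-treated mutant pools, where Hsd17b2, Fam25c, 2310002D06Rik and Ttr were lowest. They were not high in the treated mutant pools, where Fgl1 was lowest. These markers fell with purmorphamine in the mutant, where those 4 genes rose. Their part in these results was not tested.

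Liver markers were read because Fgl1 and Ttr are abundant in that organ. Alb and Apoa1, the defining ones, were not well above background in any pool. The list of 10 summed to 70471 and 57729 in the DMSO controls, 56946 and 42094 in the treated controls, 35355 and 33330 in the DMSO mutants, and 22671 and 23336 in the treated mutants, most of it from Trf, the gene for transferrin, which epithelia also express. Trf was lower in the mutant, at -0.98 in DMSO and -1.16 under purmorphamine, and also in the treated mutant against the DMSO control. Ahsg, a secreted liver protein, was lower in the treated mutant than in the DMSO control, at -2.32, and Cps1 was higher there by 1.03 and between genotypes under purmorphamine by 1.02. With purmorphamine against DMSO none of the 7 tested liver markers was called in either genotype, and 5 of the 7 lay below 0 in each, with a median of -0.43 in the mutant and -0.65 in control, where the medians of all genes were -0.00 and 0.02. Ahsg differed by -2.003 in the mutant (adjusted p = 0.0508 in limma) and by -1.30 in control (adjusted p = 0.156), and Trf by -0.52 and -0.34. The part of these liver markers in the results for Fgl1 and Ttr was not tested. Of 7 markers of the choroid plexus, the other tissue rich in Ttr, Kcnj13 was at least 1.47-fold higher in the DMSO-treated mutant and higher under purmorphamine by 0.84, and against the DMSO control Kcnj13, at least 2.22-fold, and Clic6 were higher in the treated mutant. None of that list was called lower in any comparison. Enpp2 was the most abundant of that list, and Otx2 was not tested. The choroid plexus list summed to 52779 and 74681 in the DMSO controls and 60359 and 47752 in the treated controls. It summed to 66404 and 80251 in the DMSO mutants and 70892 and 59346 in the treated mutants.

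Markers of stroma, vessels, leukocytes and fat were called mostly between the treated mutant and the DMSO control, a comparison that joins genotype and treatment. Smooth muscle markers, with Acta2 the most abundant, summed to 256532 and 349453 in the DMSO controls and 485921 and 490943 in the treated controls. They summed to 317733 and 276747 in the DMSO mutants and 487551 and 586622 in the treated mutants. With purmorphamine all 6 lay above 0 in both genotypes, with medians of 0.85 in the mutant and 0.71 in control. None of the 6 was called within a genotype. In the treated mutant 4 of 6 were higher than in the DMSO control, Acta2 by 0.83, Actg2 by 0.91, Cnn1 by 0.85 and Tagln by 0.81. Of 6 fibroblast markers Col1a1 was higher in that comparison, at 0.68, and Aldh1a2 lower, at -0.73, and Dcn, the most abundant, was not called. Of 5 endothelial markers, with Cdh5 the most abundant, Cdh5 and Tek rose in the mutant by 1.25 and 2.00, Tek rose in control by 1.26, Kdr was higher by 0.88 in the DMSO-treated mutant, and Pecam1, Cdh5, Kdr and Tek were higher in the treated mutant than in the DMSO control. Of 5 leukocyte markers, with Lyz2 the most abundant, Adgre1 fell in the mutant, at -1.06, and was lower in the treated mutant than in the DMSO control, at -1.15. Fat cell markers, led by Fabp4, summed to 215816 and 284161 in the DMSO controls and 216501 and 171556 in the treated controls. They summed to 145278 and 102906 in the DMSO mutants and 21309 and 128855 in the treated mutants. No fat marker was called within a genotype or between genotypes in the same medium. The male treated mutant pool had the least fat signal of all, and Plin1 was lower in the treated mutant than in the DMSO control, at -2.99. The part of these tissues in the changes of the 5 genes was not tested.

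**Figure D5:**
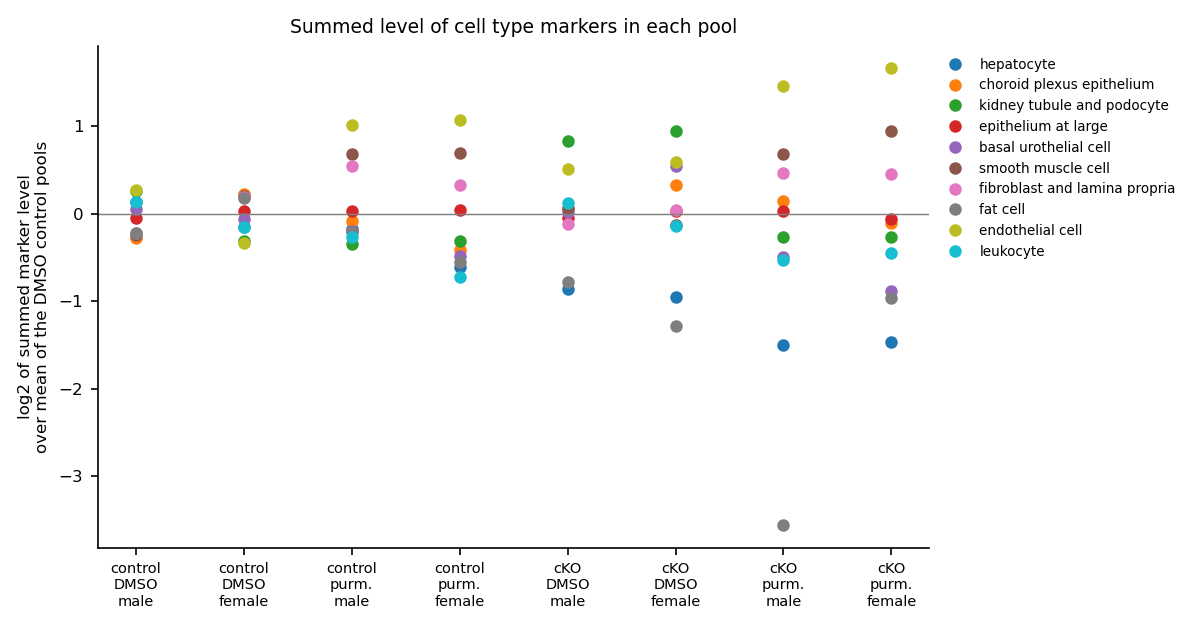
Log2 of the summed marker intensity in each pool over the mean of the 2 DMSO control pools (vertical axis), for 10 marker lists (colours) in the 8 pools (horizontal axis). Kidney markers stand high in both DMSO mutant pools, fat markers stand low in the male treated mutant pool, and epithelial markers stay near 0.

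The genes whose levels over the 8 pools were most like those of each gene were listed by Pearson's r among 20521 others, as a description over pools that share arrays and fall into 4 groups. Hsd17b2 and 2310002D06Rik were each other's nearest gene of all, with r = 0.994. The next for both were 4930415C11Rik (r = 0.992 with Hsd17b2) and Cpb1, a carboxypeptidase (r = 0.991). Nearest to Fam25c were Mal, a membrane protein of apical transport (r = 0.986), Nbeal1 and the uroplakin gene Upk1b (r = 0.983 for each). Nearest to Ttr were Tex2 (r = 0.994), Ankfn1 (r = 0.993) and Ppara (r = 0.992), the gene of a nuclear receptor of the PPARG family, which read 10.64 and 10.98 in control and 9.67 and 9.69 in Pparg-cKO with DMSO. Nearest to Fgl1 were Trf (r = 0.991), Sh2b2, an adaptor of insulin signalling (r = 0.984), and Gys1, the muscle glycogen synthase (r = 0.980). Fgl1 was least like Fam25c among the 5 genes, with r = 0.152.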

How the data were processed

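The authors labelled amino allyl cRNA of 8 ureter pools with 2 dyes, hybridised them to 4 Agilent arrays of 1 slide and read them with Agilent Feature Extraction (version 10.7.3.1 per the labels, 12.2.0.7 per the file headers). Deposited spot intensity (mean signal and median local background, linear scale) was background corrected with normexp (offset 50) and normalised by loess within each array in limma 3.58.1 (R 4.3.3). Control spots and spots with an outlier flag were left out, and the 4 spots of each probe were averaged. The deposited LogRatio, on the log10 scale per the file headers, served only to check the dye direction. The series value table deposited by the authors holds a signed fold change per array rounded to 1 decimal (a score with no values between -1 and 1), whose correlation with the log2 ratios was 0.969 to 0.976, which gives its direction as purmorphamine over DMSO; its centring is unknown.

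A probe was tested where both pools of some group read it well above background (27464 probes, 20522 genes), and the brightest probe stood for a gene. Purmorphamine effects and their difference between genotypes came from limma on log ratios. Comparisons across arrays used limma's separate-channel fit after Aquantile normalisation (intraspot correlation 0.048). P-values were adjusted by Benjamini-Hochberg over all probes tested, with a threshold of 0.05. The treated mutant was compared with the DMSO control by the same fit, but for the 5 genes only as a description. Each fit was run on simulated data with known changes and independent noise, without effects of sex or dye. That run required only the right sign and near size of the median changes. The number of arrays limits the precision, and offset 50 shrinks differences of dim probes. A group with no pool well above background has only a bound: "at least N-fold" sets the bright group's mean against the higher of the dim probe's own level and the lowest level well above background, per pool, and is open to dye bias.

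The 5 genes and all gene lists were chosen with earlier results of these data known. Named are all 5 genes, listed genes called in a comparison and, of the 4 largest differences of each list, some that were not called, the most abundant marker of each list, and the 3 genes most like each of the 5. Listed symbols were matched to the array through RefSeq (GRCm38.p6), and 3 needed an older or newer name. Whether replicate numbers pair arrays across genotypes was checked by the correlation of their differences. Some listed genes are not reported here and were left out of the lists and sums.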

Additional observations from a re-analysis of the deposited data

How the results depend on the processing

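With purmorphamine, the log2 change of each of the 5 genes kept its sign in both genotypes under each of the 13 alternatives run for it. In Pparg-cKO the scanner's processed signals gave larger changes, although none was called. They were 2.67 for Hsd17b2, 2.43 for 2310002D06Rik, 1.59 for Fam25c, 1.88 for Ttr and -2.10 for Fgl1. Over all 13 alternatives the change of Ttr in Pparg-cKO ran from 0.88 to 1.88. The numbers called changed, and the share of all genes called under the same setting, in either direction, follows each in brackets. In Pparg-cKO the count of 5 (4.43%) became 0 with the scanner's processed signals and 0 with the deposited value table (0% in both), 1 without the filter on dim probes (0.966%), 3 with the separate-channel fit (5.64%), 4 under the rule of an intensity above 100 and at least 1.5-fold, run on the scanner's processed signals (6.08%, Ttr lost), and 2 to 4 with 1 array left out (0.585% to 5.17%). In control the count of 0 (1.15%) became 1 with median normalisation (1.33%, Ttr), 1 with any probe of a gene (1.25%, Fgl1), 1 with the replicate block (1.26%, Fgl1), 4 under that rule (4.58%), and 0 to 3 with 1 array left out (0% to 2.51%). In the treated mutant against the DMSO control, 10.8% of all genes were called. That share became 6.69% without the filter and 1.99% with the crossed replicate block. The 5 genes are not counted in this contrast, because its DMSO controls served their choice. Of the superficial cell genes called lower, with the share of all genes lower in brackets, 6 in DMSO (1.73%) became 0 with the crossed block (0.253%) and 0 to 4 with 1 array left out (0.0536% to 0.682%). Those under purmorphamine, 4 (1.7%), became 7 with median normalisation (1.94%), 2 without the filter (0.809%), 2 with the replicate block (0.263%), 0 with the crossed block (0.039%) and 0 to 3 with 1 array left out (0.0195% to 0.984%). The alternatives for these 2 lists and the crossed block were chosen after seeing the data. The causes were not tested, except that more probes are adjusted over without the filter and a lone array is assumed to vary like the others when 1 is left out.

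The replicate numbers mark sex and dye orientation, not shared animals. Differences between replicates 1 and 2 correlated across probes at 0.155 between genotypes for log ratios and at -0.168 for levels in DMSO. With the replicate block 891 genes in place of 910 were called in Pparg-cKO and 258 in place of 237 in control, with 5 and 1 of the 5 genes among them. In the treated mutant against the DMSO control 718 genes in place of 2221 were called with the replicate block and 408 with the crossed pairing. The study's rule gives no value for the difference between genotypes, so it was not run there.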
